A study of Mus musculus with 321 samples.

Results

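Tcf-1 RV was set against Empty RV in NIH3T3 cells by ATAC-seq, which cuts accessible DNA with a transposase, at the earlier of 2 time tags. The comparison rests on 4 of the 321 samples of the series: 2 libraries of NIH3T3 carrying an empty retrovirus (Empty RV) and 2 of NIH3T3 carrying a retrovirus for Tcf-1 (Tcf-1 RV). They were chosen because the names of their deposited peak lists carry a day 2 tag. NIH3T3 is an established mouse embryonic fibroblast line, labelled here with the strain NIH/Swiss and passages 8-12 in both arms, so the recipient cells are not of the T lineage. The 4 lists were merged wherever peaks shared at least 1 bp, giving 54513 regions. A region was called gained if both Tcf-1 RV libraries and neither Empty RV library had a peak in it, and lost in the reverse case. By this rule 9636 regions were gained, 17.7% of all regions, and 391 were lost, 0.717%. The sample labels give no day, do not say whether replicates came from separate cultures, and do not name the promoter of the virus or the share of cells infected. Each p-value therefore measures only the spread between these libraries.

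Tcf-1, encoded by Tcf7, belongs to the TCF/LEF family, whose HMG box binds the minor groove of DNA and bends it. With beta-catenin bound, these factors relay Wnt signals to their target genes, and with TLE corepressors bound they can silence them. In the thymus Tcf-1 is needed early in T cell development. ATAC-seq peaks mark DNA that nucleosomes leave accessible, and a factor that binds closed sites can be followed by new peaks there.

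A Tcf-1 summit is the single base of strongest Tcf-1 ChIP-seq signal. A promoter was taken as the 250 bases before a gene start and the 50 from it on. Among gained regions that overlapped a promoter and held a summit, the 5 with the highest summit scores were at Nf2, Mindy1, Ugt1a7c, Pim1 and Bloc1s2. Nf2 encodes the Hippo pathway tumour suppressor merlin, Pim1 a serine/threonine kinase, Ugt1a7c a glucuronosyltransferase, Mindy1 a deubiquitinase and Bloc1s2 a subunit of a complex for lysosome-related organelles. Nf2 had the highest score, and the other 4 had 103.2, 100.6, 95.5 and 77.5. For Nf2, Ugt1a7c and Bloc1s2 the summit itself lay in the 250 bases before the start, at -141, -159 and -43. Those bases are printed 5′ to 3′ on the gene's strand, from RefSeq on GRCm38.p6, because they are start sites at which a bound site and a peak seen in both Tcf-1 RV libraries coincide. On day 4 no Empty RV library held the Nf2 region, and both held those of Ugt1a7c and Bloc1s2. Capitals mark TCAAAG or ACAAAG, the core of the TCF/LEF motif, on either strand, so that the reverse strand reads CTTTGA or CTTTGT.
Nf2, chr11:4833136-4833385, minus strand: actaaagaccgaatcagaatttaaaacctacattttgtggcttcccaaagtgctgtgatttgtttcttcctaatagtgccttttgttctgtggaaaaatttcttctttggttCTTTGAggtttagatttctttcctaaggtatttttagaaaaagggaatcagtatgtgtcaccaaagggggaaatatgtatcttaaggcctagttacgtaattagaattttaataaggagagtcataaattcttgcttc
Ugt1a7c, chr1:88094751-88095000, plus strand: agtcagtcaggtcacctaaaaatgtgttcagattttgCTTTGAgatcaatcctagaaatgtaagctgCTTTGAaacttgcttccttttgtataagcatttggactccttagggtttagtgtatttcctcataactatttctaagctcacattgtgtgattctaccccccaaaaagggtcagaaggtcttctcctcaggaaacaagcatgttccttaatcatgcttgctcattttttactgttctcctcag
Bloc1s2, chr19:44146447-44146696, minus strand: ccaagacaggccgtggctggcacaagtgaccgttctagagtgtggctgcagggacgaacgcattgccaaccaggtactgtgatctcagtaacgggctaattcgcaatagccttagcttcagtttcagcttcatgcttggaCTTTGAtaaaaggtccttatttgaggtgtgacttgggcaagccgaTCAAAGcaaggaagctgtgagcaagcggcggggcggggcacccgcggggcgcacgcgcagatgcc

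In Nf2 the 1 match began at -138, with its middle 6 bp from the summit. Ugt1a7c had matches at -213 and -183 and Bloc1s2 at -110 and -65, with the nearest match 21 and 19 bp from the summit. Mindy1 and Pim1 had no match in that window, but their summits lay outside it, at -452 and -372. Of 21263 promoters, 25.3% held a core match in the 250 bases before the start. Among promoters over a gained region with a summit the share was 38.8% (19 of 49, 95% Wilson interval 26.4% to 52.8%). Where the summit lay inside the window it was 43.5% in gained regions (10 of 23, 25.6% to 63.2%) and 23.8% in regions held by all 4 libraries (of 810, 21% to 26.9%). Promoters with a summit in the window but no peak in any day 2 library held it in 39.8% (31.1% to 49.2%). The longer forms ATCAAAG or AACAAAG or TTCAAAG or TACAAAG, which contain the core, were in 13.2% of all promoters and in 17.4% of the 23. A match describes the letters of the window and is not a mapped site.

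The peak lists differed in length before any region was classed. Empty RV replicate 1 had 22778 peaks, Empty RV replicate 2 had 34601, Tcf-1 RV replicate 1 had 47623 and Tcf-1 RV replicate 2 had 43527. Empty RV replicate 1 stood apart, with the shortest list and the narrowest peaks: median widths were 290, 317, 335 and 330 bp in the same order. The read depth behind the lists is unknown, so the length of a list alone shows how much the caller returned, and its part in the counts of gained and lost regions cannot be told apart from that of Tcf-1. With each list trimmed to its 22778 widest peaks, 2853 regions were gained and 2306 lost. This trim is uneven in width: Tcf-1 RV replicate 1 kept no peak under 343 bp, while Empty RV replicate 1 kept peaks down to 200 bp. A narrow site can thus drop out of 1 arm only. The excess of gained over lost regions moved with the trim, in which list length and peak width change together. Values for the trimmed lists, called lists of equal length, are given beside the results they touch. Single libraries also moved the counts: 17811 regions were gained without Empty RV replicate 2 and 16686 without Tcf-1 RV replicate 2. The 2 Tcf-1 RV libraries shared 74.7% of their combined regions, the 2 Empty RV libraries 61.2%, and pairs across arms 44.3% to 63%.

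Some fibroblast markers, and none of the T cell markers, had peaks at their ends in the day 2 libraries. Of 12 fibroblast markers, 6 had a peak within 1 kb of a gene end in Empty RV replicate 1 and 9 in each of the other 3 libraries, Col1a2, Fn1, Vim, Postn, Twist1 and Snai2 in all 4. None of 10 T cell markers (Cd3e, Cd3d, Cd3g, Cd4, Cd8a, Rag1, Rag2, Lck, Zap70, Ptcra) had one in any of the 4, while all 10 had one in both wild-type (WT) libraries of CD4 CD8 double-positive (DP) thymocytes. Pdgfra, Thy1 and Prrx1 were the fibroblast markers without one in any day 2 library. The WT DP libraries had one at 2 and 5 of the 12, Vim and Pdgfrb in both and Fn1 in 1. B cell and epithelial markers were at 0 of 5 in each day 2 library, and myeloid markers at 0, 2, 2 and 2 of 5.

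Tcf-1 RV lists held more peaks with a Tcf-1 summit. The summits come from 1 pooled list of 40562, made by ChIP-seq in Tcf-1 RV cells, so regions open in those cells were also the chromatin from which the summits were called. The share of peaks with a summit was 29.7% and 27.2% in the Empty RV libraries and 36.8% and 36.3% in the Tcf-1 RV libraries. The groups did not overlap: the means were 28.4% ± 1.73 (SD, n = 2) and 36.5% ± 0.366 (SD, n = 2), a difference of 8.08 percentage points. Within the libraries of the same letter tag, whose meaning is not stated, the differences were 7.11 and 9.04. An exact two-sided permutation test over 2 against 2 libraries gave p = 0.333, the smallest it allows, and the 7 measures compared all had an adjusted p of 0.333.

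Other features of the peaks moved with arm and list length together. Peaks within 1 kb of a transcription start made up 28.1% and 24.6% of the Empty RV lists and 19.5% and 21% of the Tcf-1 RV lists. Peaks inside islands of H3K27me3, a mark laid down by Polycomb, made up 0.487%, 1.07%, 2.14% and 1.99%. Peaks that overlapped chromatin open in both WT DP libraries made up 34.9%, 29.9%, 23.2% and 25.1%. In all 3 the arms did not overlap, and in all 3 the shortest list was at the far end. For H3K9me3, the mark of constitutive heterochromatin, the values were 5.50%, 5.42%, 5.73% and 5.51%, and the arm means differed by 0.160 percentage points.

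**Figure D1:**
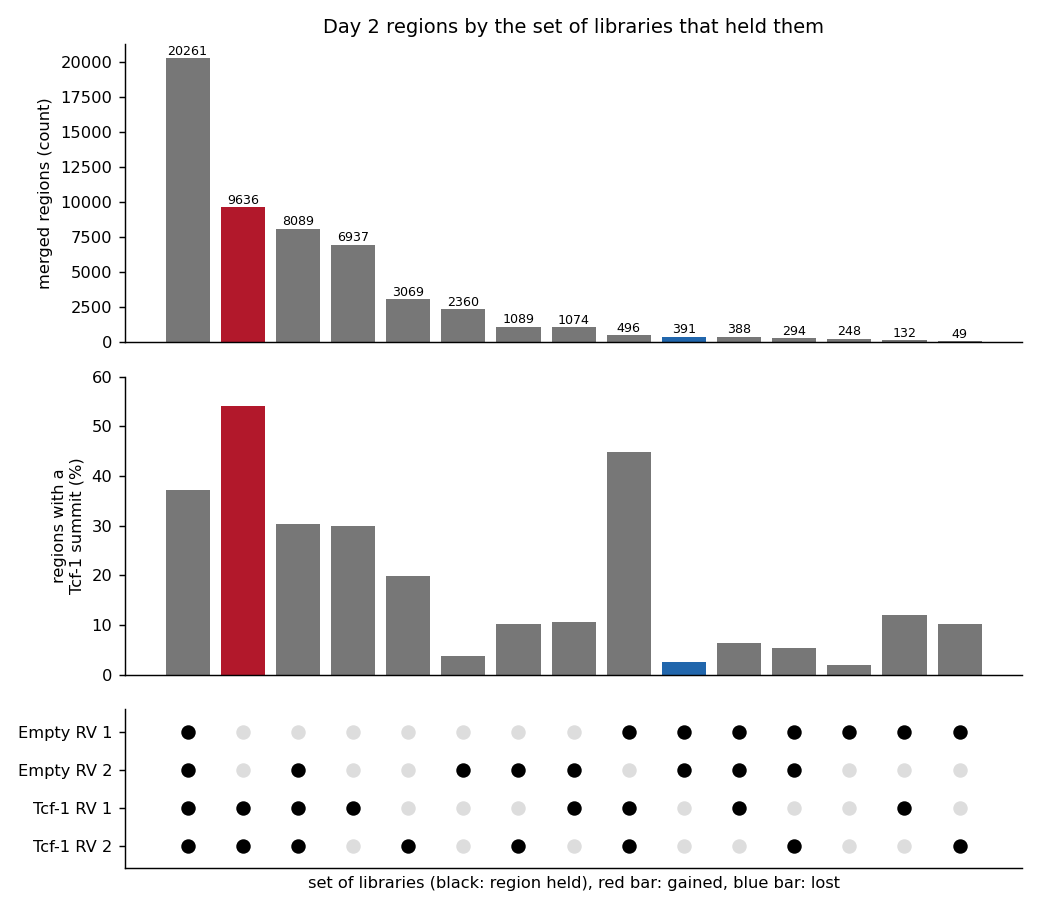
Number of merged regions (upper bars) and percent of them with a Tcf-1 summit (middle bars) for each of the 15 sets of day 2 libraries that can hold a region. Black dots below show which libraries held it. Gained regions (red) number 9636 with a summit in 54%, lost regions (blue) 391 with a summit in 2.56%, and regions of all 4 libraries 20261 with a summit in 37.2%.

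Gained regions had the largest share with a Tcf-1 summit among the 15 sets in the plot of regions by library. A summit lay in 5205 of 9636 gained regions (54%, 95% Wilson interval 53% to 55%), in 10 of 391 lost regions (2.56%, 1.40% to 4.64%) and in 7538 of 20261 regions held by all 4 libraries (37.2%, 36.5% to 37.9%). Regions held by 1 library of each arm, which serve as a measure of regions called unsteadily, numbered 2344, of which 10.5% held one. Regions seen only in Tcf-1 RV replicate 1 or only in Tcf-1 RV replicate 2 held one in 30% and 19.9%, and those seen only in Empty RV replicate 1 or 2 in 2.02% and 3.81%. With lists of equal length the shares were 76.3% in gained, 13.4% in lost and 42.4% in regions of all 4 libraries. The intervals reflect counting error alone, and regions close together are not independent of each other.

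The summits in gained regions were strong and central. Their median score was 32.3, against 23.2 in regions of all 4 libraries and 12.0 in regions held by 1 library of each arm. The score is the authors' and its scale is not stated, so it was used only to rank summits. The summit lay within 50 bp of the middle of the region in 52.4% of gained and 43.7% of constantly held regions that had one. Gained regions were narrower than constant ones, with medians of 323 and 498 bp, which bears on both distances. Inside gained regions the summit share went from 26.9% in the narrowest quintile to 77% in the widest. Gained regions without a summit were not next to one as a rule: 7.81% lay within 1 kb of a summit, and the median distance was 19561 bp.

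Most summits outside the day 2 Empty RV peaks were not in gained regions. Of the 40562 summits, 30712 lay outside every peak of both Empty RV libraries, and 5214 of these (17%, 16.6% to 17.4%) lay in a gained region. With lists of equal length the share was 6.81%. In the full lists, at least 1 Tcf-1 RV library had a peak at 29.4% of the 30712, and at least 1 day 4 Empty RV library at 14.8%. With regions and summits in day 4 Empty RV peaks left out, the gained share was 11.5%. The 30712 are called closed summits below, which means only that no day 2 Empty RV peak held them. By deciles of the score the gained share was 3.52% in the lowest and 50.2% in the highest, and it was larger in each decile than in the one before. The score and the peaks come from separate libraries, all of Tcf-1 RV cells.

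**Figure D2:**
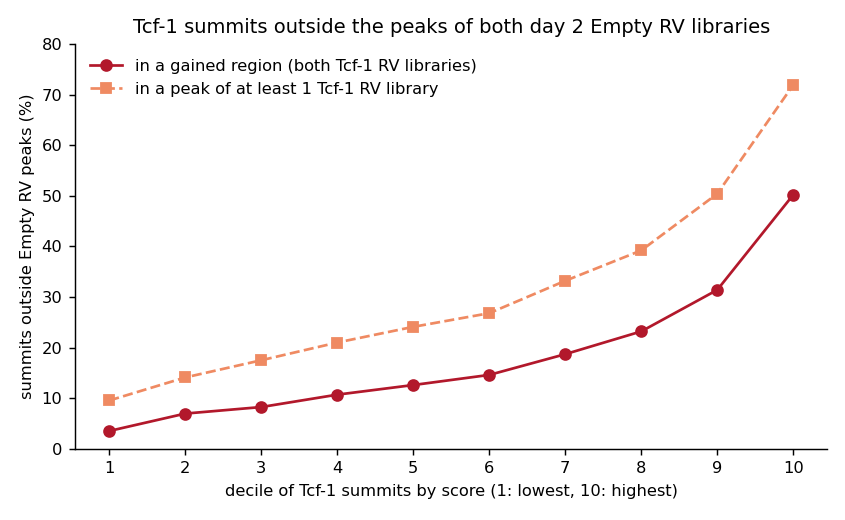
Percent of Tcf-1 summits outside all peaks of both day 2 Empty RV libraries (vertical axis) that lay in a gained region (circles) or in a peak of at least 1 day 2 Tcf-1 RV library (squares), by decile of the summit score from lowest to highest (horizontal axis). The circles go from 3.52% to 50.2% and the squares from 9.55% to 71.9%.

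Most gained regions, 8620 of 9636, lay outside both repressive marks of NIH3T3 cells without Tcf-1. H3K27me3 islands called in both replicates held 389 gained regions (4.04%, 3.66% to 4.45%), 92 constant regions (0.454%, 0.370% to 0.557%) and 60 regions of 1 library per arm (2.56%, 1.99% to 3.28%). Regions seen in only 1 Tcf-1 RV library were at 5.03% and 6.32%, so the share was not higher where both libraries had the peak. H3K9me3 islands held 639 gained regions (6.63%, 6.15% to 7.15%), 1054 constant regions (5.20%) and 44 lost regions (11.3%, 8.49% to 14.8%). With lists of equal length the H3K27me3 share of gained regions was 2.49% against 0.206% in constant ones.

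The gained share of closed summits was lower in H3K27me3 than outside the marks, except where the score was high. Of closed summits outside both marks 17.5% (17% to 17.9%) lay in a gained region, of those in H3K27me3 only 10.3% (8.95% to 11.8%) and of those in H3K9me3 only 16.7% (15.2% to 18.4%). In the lower 4 quintiles of the score the H3K27me3 shares were 3.16%, 4.70%, 8.40% and 10.4%, against 5.42%, 10.0%, 14.1% and 21.6% outside the marks. In the top quintile they were 39.2% (83 summits, 32.8% to 45.9%) and 40.3% (1915 of 4752, 38.9% to 41.7%), whose intervals overlap. The day 4 Empty RV libraries differed there: at least 1 of them had a peak at 5.66% of the top-quintile closed summits in H3K27me3 and at 22.8% of those outside the marks. Strongly bound sites in H3K27me3 were thus seldom called in any Empty RV library. No test was made over regions or summits, which are not replicates.

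Named regions in H3K27me3 included developmental genes. Hoxb1, a homeobox gene of hindbrain patterning, had a gained region with a score of 164.6 at chr11:96404923-96405309, 36669 bp from the gene. Both day 4 Tcf-1 RV libraries and no day 4 Empty RV library held it. Stra6, the membrane receptor for retinol-binding protein, had 2 regions in all, both gained, both with a summit and both in H3K27me3. Limch1, Crtac1 and Tcf7 also had 2 gained regions each in H3K27me3. In H3K9me3, Negr1, a neuronal cell adhesion gene, had 5 gained regions with 1 summit among them. Sox5, a transcription factor of cartilage and neural development, had 4, and Rerg and Gdnf, a neurotrophic factor, had 3 each. The gained region with the highest score of all, 249.3, lay in H3K9me3 at chr12:8077278-8077726, with no protein-coding gene within 50 kb. Both day 4 Tcf-1 RV libraries held it and neither day 4 Empty RV library did.

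Gained regions were mostly away from gene starts. A start lay within 1 kb of 579 gained regions (6.01%, 5.55% to 6.5%), 6087 constant regions (30.04%, 29.4% to 30.7%) and 11.1% of regions of 1 library per arm. Without Empty RV replicate 2 the gained share was 13.2%, above that 11.1%, which comes from all 4 libraries and could not be recomputed. With lists of equal length the gained share was 6.73% against 37.5% in constant regions. Starts of 17492 genes were used, 79.9% of the protein-coding genes and none on chromosome 18, so these shares are lower bounds. Counted from either end of any protein-coding gene they were 8.36% in gained and 34% in constant regions. Gained regions with a summit were at starts in 2.77%, those without in 9.82%. Of all gained regions 52.8% lay inside a protein-coding gene, and by chromosome 16.9% to 19.6% of the regions were gained, leaving out chromosome Y with none of 5.

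Little of the gained chromatin was open in thymocytes. Only 604 gained regions overlapped a peak of both WT DP libraries (6.27%, 5.80% to 6.77%), against 7652 constant regions (37.8%, 37.1% to 38.4%) and 302 of those held by 1 library per arm (12.9%, 11.6% to 14.3%). Without Empty RV replicate 2 the gained share was 14.6%, above that 12.9%, which comes from all 4 libraries and could not be recomputed. The place of the gained share below the regions of 1 library per arm was thus seen only with that library included. With lists of equal length the gained share was 6.94% against 46.2% in constant regions. With a summit the share was 2.71% and without one 10.4%. Only 87 of the 604 were held by no day 4 Empty RV library, against 4552 of all 9636 gained regions. Most of the 604 were thus called without Tcf-1 in the day 4 Empty RV lists. Of the 604, 348 (57.6%) had no peak in either Tcf-1 knockout (KO) DP library, against 12.3% of constant regions open in WT thymocytes. The KO lists were shorter than the WT lists, 11171 and 12209 peaks against 23249 and 30985, and the share of regions away from starts also differed between the sets. The part of both in this contrast was not tested. Of the 604, 18 covered a gene start and held a summit. They were at Bloc1s2, Kyat1, Map2k5, Ncaph, Ncoa1, Ncoa4, Ndufa9, Osbpl7 and Pafah1b2, and at Rtn4, Sipa1l2, Uba1, Ubr1, Ulk2, Wdr81 and Ypel5. The list ends with Ptpn22, a phosphatase of T cell receptor signalling, and Cxcr6, a chemokine receptor. The Cxcr6 region, chr9:123806336-123806682, was in neither KO library and in no day 4 library. That of Osbpl7 was in neither KO library and in no day 4 Empty RV library. Both day 4 Empty RV libraries held all the others, those of Bloc1s2 and Ptpn22 included.

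At Tcf7 itself, the gene the virus carries, 8 of 11 regions were gained and all 8 held a summit. A run of 5 lay inside the gene within 5021 bp, chr11:52256743-52261763, the most crowded run of gained regions in the genome when regions under 10 kb apart were joined. Another gained region lay inside the gene, close to a start site, at chr11:52281977-52282373, and 1 lay 38249 bp outside the gene at chr11:52321632-52322160, and both were in H3K27me3. Both day 4 Tcf-1 RV libraries held 4 of the 8 with no day 4 Empty RV library. Within the run, 1 region of 322 bp at chr11:52260984-52261305 was lost: both day 2 and both day 4 Empty RV libraries had it, along with Tcf-1 RV replicate 4. DNA of the Tcf-1 virus carries Tcf7 coding sequence, and reads from it cannot be told apart from reads of the exons of the cellular gene, in ATAC-seq and in ChIP-seq alike. Exon positions were not used here, so the Tcf7 regions are given as called.

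**Figure D3:**
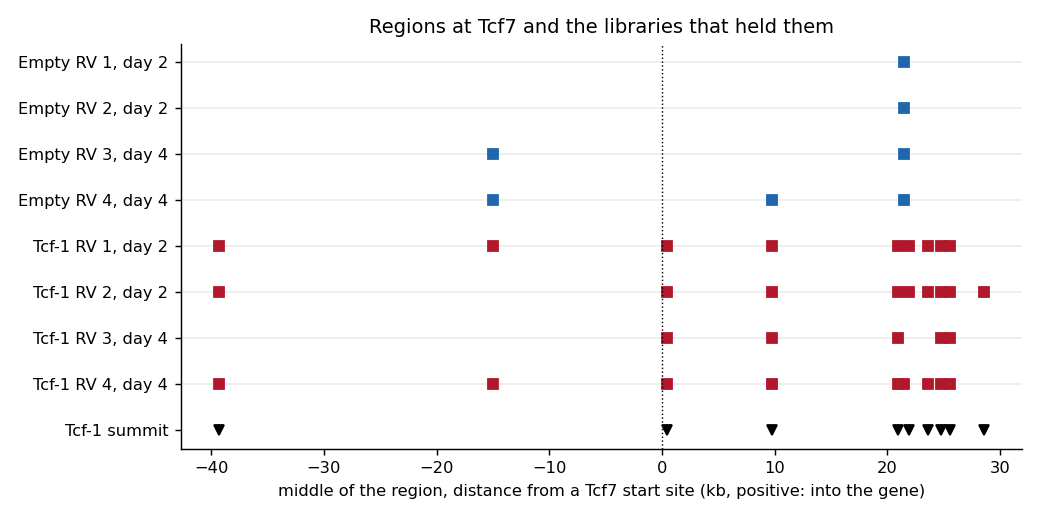
Regions assigned to Tcf7, placed by the distance of their middle from a Tcf7 start site in kb (horizontal axis, positive into the gene), with 1 row per library (squares: region held, blue Empty RV, red Tcf-1 RV) and the regions with a Tcf-1 summit as triangles. The 5 gained regions of the run crowd together deep in the gene in both day 2 Tcf-1 RV rows, with the lost region among them in all 4 Empty RV rows.

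Of 14541 protein-coding genes with a region inside or within 50 kb, 5173 (35.6%) had at least 1 gained region and 1.94% had a lost one. The count of genes with a gained region was 8192 without Empty RV replicate 2 and 1913 with lists of equal length, so the background for the gene lists moves as well. These shares depend on how many regions a gene has: 12.2% of genes with 1 region had a gained one, and 95.5% of genes with 11 or more. The genes with the most gained regions were accordingly long. Foxp1, a forkhead repressor, had 12 of 41 regions gained, 5 with a summit. Nrg1, an ErbB ligand, had 10 of 33, and Nfia, a nuclear factor I gene, 9 of 27. Cdk14, a cyclin-dependent kinase linked to Wnt receptor phosphorylation, had 9 of 32, all 9 with a summit, and Gli3, a transcription factor of Hedgehog signalling, 9 of 25 with 8. Dlg2, a synaptic scaffold gene, had 9 of 37. Crim1 had 8 of 15, Hmga2, an architectural chromatin protein, 8 of 13 and Col14a1, a collagen, 8 of 18.

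Genes of the TCF/LEF family and of the beta-catenin complex had the largest share of gained regions among the 22 lists, 28 of 90 (31.1%, against 16.9% over all regions assigned to genes). Of those 28, 8 were at Tcf7, where reads of the virus cannot be told apart from reads of the exons. By genes, 8 of 14 had a gained region, beside 35.6% of all genes. Tcf7l2, another TCF/LEF member, had 6 of 17 regions gained, 5 with a summit. One of them, inside the gene at chr19:55792613-55792888, scored 110.9 and was held by both day 4 Tcf-1 RV libraries and no day 4 Empty RV library. The corepressor genes Tle4 and Tle1 had 4 of 9 and 3 of 8, and Ctnnbip1, an inhibitor of beta-catenin, 3 of 4 without a summit. Lef1 (4 regions) and Ctnnb1 (3 regions) had none gained.

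Of Wnt ligands and receptors, 12 of 25 genes had a gained region, beside 35.6% of all genes, and 10 of their 18 gained regions held a summit. The receptor genes Ror1, Fzd3, Lrp5, Lrp6 and Ror2 led with 3 of 14, 2 of 2, 2 of 4, 2 of 9 and 2 of 9. Of the cytoplasmic relay, 4 of 14 did, with 2 regions each at Csnk1d, a casein kinase, and Tnks, which marks Axin for degradation. Of Wnt targets and feedback inhibitors, 10 of 20 did, and 9 of their 14 gained regions held a summit. By regions the shares gained were 19.4%, 13% and 18.4% in the 3 lists, near the 16.9% over all genes. Ccnd1, the gene of cyclin D1, had 3 of 4 regions gained, and Sfrp2, a secreted Wnt inhibitor, 2 of 3. The only region of Nkd1, a feedback inhibitor of Dishevelled, was gained, with a summit, inside H3K27me3 at chr8:88555798-88556041. Day 4 Empty RV replicate 4 also held it, so it is no clear case of a site without a peak in the absence of Tcf-1.

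T lineage genes, beside a background of 35.6%, did not stand out as a group. Among 16 genes of the T cell receptor and the signalling below it 6 had a gained region, of DP thymocyte genes 2 of 11 and of T lineage transcription factors 10 of 23. Cd3e and Rag2 had a region each, not gained, and Cd3d, Cd3g, Cd4, Cd8a and Rag1 had no region. Fyn, a Src family kinase also used outside T cells, had 4 of 14, and Tcf12, an E protein, 5 of 11 with 4 summits. Themis, a thymocyte signalling gene, had 2: one, at chr10:28776518-28777025, held a summit of score 16.3 and was in no day 4 library, and the other was in all 4. The only region of Ptcra, the pre-T cell receptor alpha chain, was gained, in H3K27me3 and without a summit. Notch1 had 2 of 5, and its region inside the gene was held by both day 4 Tcf-1 RV libraries and no day 4 Empty RV library.

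Genes of the recipient cells' own programme were represented too. Of fibroblast and matrix genes, which had a median of 4 regions, 13 of 28 (46.4%) had a gained region. That compares with 35.6% of all genes and 48.9% of genes with 3 to 5 regions. By regions 20.5% were gained, against 20% in the T cell receptor list and 16.9% over all genes. A summit lay in 23 of their 26 gained regions (88.5%), against 53.3% of gained regions over all genes and 88.9% in the adipocyte and bone list. Fbn1, the microfibril gene fibrillin-1, had 6 of 17 and Col5a1 3 of 9. Col5a2 had 3 of 8, including a region at chr1:45380362-45380668 with a score of 178.9, and Postn, which encodes periostin, had 1 with a score of 120.9 at chr3:54436403-54436711. Both were held on day 4 by both Tcf-1 RV and no Empty RV library. Genes of the TGF-beta and BMP pathway had a gained region in 14 of 19, with 29 regions gained (21.5%), led by Ltbp1, which binds latent TGF-beta, with 8 of 26. Genes of the TEAD and YAP pathway had one in 11 of 15, with 17 of 91 regions gained (18.7%). Over all genes 16.9% of regions were gained, which is close to the last share. There Ccn2 and Ankrd1, both YAP targets, had 2 of 5 each, all with a summit.

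The remaining lists ranged more widely. Neuronal adhesion and guidance genes, which are long, had a gained region in 14 of 20, but 14.6% of their regions were gained. Muscle genes had one in 5 of 9 (Mef2c 4 of 15 regions), adipocyte and bone genes in 5 of 11 (Pparg 3 of 9, Runx2 3 of 22), homeobox genes in 7 of 16 and B cell markers in 3 of 5 (Ebf1 4 of 22), beside 35.6% of all genes. By regions the shares gained in these lists were 22.9%, 15%, 15.1% and 22.2%, beside 16.9% over all genes. Epithelial genes had a gained region in 4 of 12, among them Krt5, whose only region was gained. Near or below the background were housekeeping genes (5 of 15), cell cycle genes (6 of 19), NK and effector genes (4 of 11, beside 35.6%), AP-1 and immediate early genes (4 of 15, with Egr2 3 of 7), interferon and antiviral genes (3 of 12) and myeloid markers (2 of 9). No test over a list was made, and the lists differ in the number of regions per gene.

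**Figure D4:**
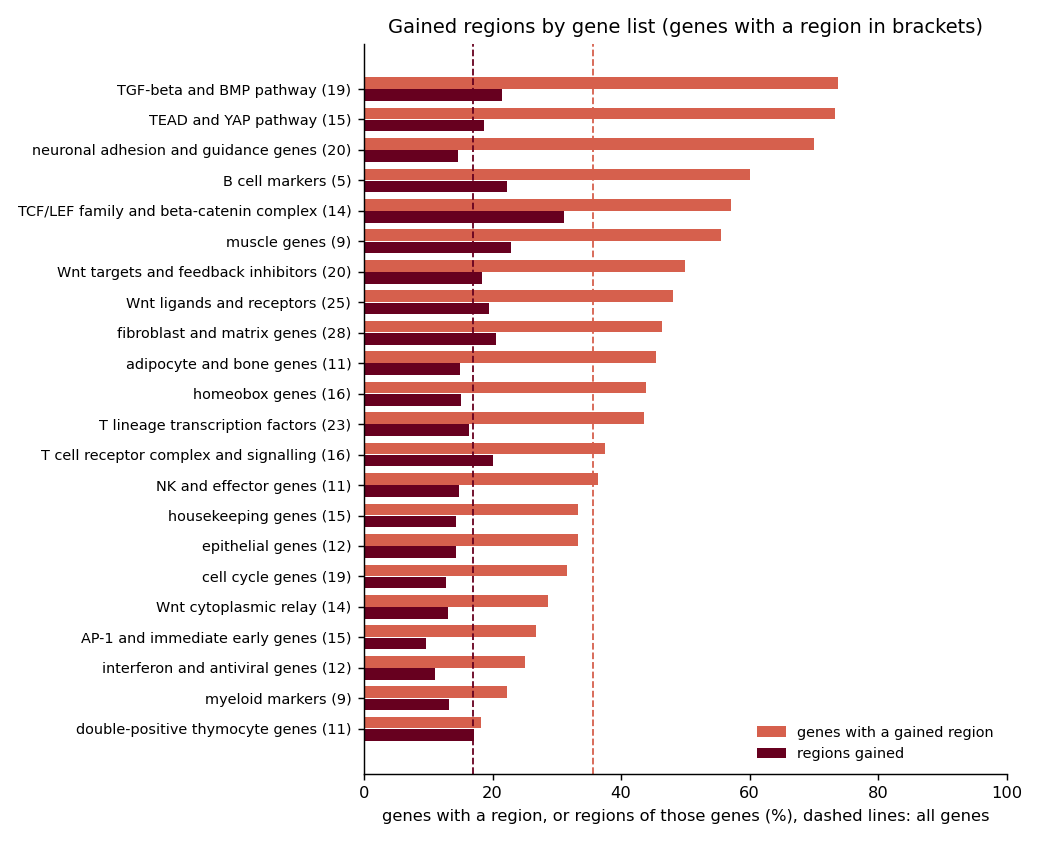
Percent of the genes with a region that had a gained region (light bars), and percent of those genes' regions that were gained (dark bars), in each of the 22 gene lists, with the number of genes that have a region in brackets. Dashed lines give the same shares over all 14541 genes, 35.6% and 16.9%. By genes the TGF-beta and BMP list is highest, at 73.7%, and the double-positive thymocyte list lowest, at 18.2%. By regions the TCF/LEF list, which includes Tcf7 itself, is highest, at 31.1%.

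The strongest bound gained regions lay mostly far from starts. After the chr12 region came those of Ets2 (score 242.5, 11067 bp from the gene, in H3K9me3), Rgs7bp (238.2), Zfand3 (234.7), Glrb (222.9), Scg5 (221.5), Nsf (218.8) and Gli2 (210.8), and 2 on chromosome 1 without a gene within 50 kb (217.4 and 206.8). Ets2 is an ETS transcription factor, Gli2 a Hedgehog effector, Glrb a glycine receptor subunit and Nsf an ATPase of vesicle fusion. Of these 10, all but the Gli2 region and 1 of the pair on chromosome 1 were held by both day 4 Tcf-1 RV libraries, and 4 were held by at least 1 day 4 Empty RV library: those of Ets2 and Scg5 and the pair. The 5 widest gained regions were at Lrrc8c (1132 bp), Swap70 (992 bp), Nobox (905 bp), Babam2 (896 bp) and Gna14 (887 bp), each with a summit. All but that of Gna14 were in all 4 day 4 libraries. The next most crowded runs after that of Tcf7 had 4 regions over 6611 bp near P2ry2, a nucleotide receptor, and 3 over 2520 bp near Slc29a2, a nucleoside transporter.

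The 4 libraries of the same virus pair with a day 4 tag were not used to call the day 2 regions, and they divided the gained regions by binding. Empty RV replicates 3 and 4 held 28.3% and 39.8% of the gained regions with a summit, and 41.98% and 78.5% were held in Tcf-1 RV replicates 3 and 4. Both Tcf-1 RV values lay above both Empty RV values, by 26.2 percentage points on average, and by 13.7 and 38.7 within libraries of the same number. Of gained regions without a summit they held 49.2%, 62.04%, 38.5% and 76.3%, and the arms overlapped, with differences of -10.7 and 14.3. Day 4 list lengths differed as well, at 46819, 58026, 36583 and 62639 peaks in the same order, and Tcf-1 RV replicate 3 had the shortest. It held 41.98% of the gained regions with a summit, against 28.3% and 39.8% in the Empty RV lists. Of those without a summit it held 38.5%, against 49.2% and 62.04%. The part of list length in these values was not tested. With day 2 lists of equal length, the Empty RV libraries held 50.2% and 60.5% of all gained regions and the Tcf-1 RV libraries 64.6% and 90.9%, against 37.9%, 50.03%, 40.4% and 77.5% with the full lists.

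**Figure D5:**
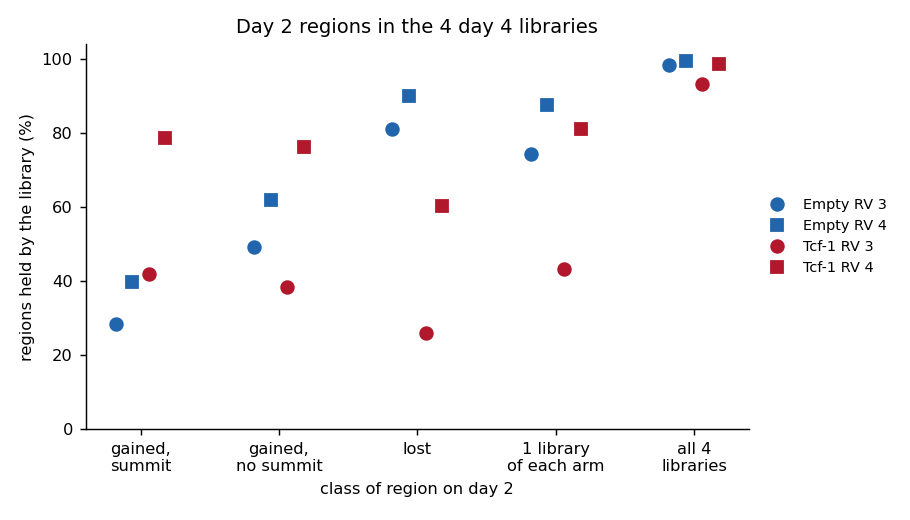
Percent of day 2 regions of each class (horizontal axis) held by each of the 4 day 4 libraries (vertical axis; blue Empty RV, red Tcf-1 RV, circles replicate 3, squares replicate 4). Both red points lie above both blue points for gained regions with a summit, at 41.98% and 78.5% against 28.3% and 39.8%, and below both for lost regions, at 26.1% and 60.4% against 81.1% and 90.03%.

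A day 4 Empty RV library held 5084 of the 9636 gained regions (52.8%, 51.8% to 53.8%). The share was 42.4% with a summit and 64.9% without. Many regions gained by the day 2 lists were thus called without Tcf-1 in the longer day 4 Empty RV lists. Of all gained regions, 3846 (39.9%, 38.9% to 40.9%) were in both day 4 Tcf-1 RV libraries (64.2% with day 2 lists of equal length), and 845 (8.77%, 8.22% to 9.35%) were in both of these and in no day 4 Empty RV library. That last share was 13.1% with a summit (12.2% to 14%) and 3.68% without (3.16% to 4.27%), and from the lowest to the highest quintile of the summit score it went from 6.92% to 21.8%. Constant regions gave 0.0740% and regions of 1 library per arm 0.299%. Of the 845 regions, 682 (80.7%, 77.9% to 83.2%) held a summit, 10 were within 1 kb of a start and 12 were open in both WT DP libraries.

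With the full lists, lost regions were few, narrow and mostly without a summit. The upper quartile of their width was 309 bp, 6 of 391 lay within 1 kb of a start, 8 were open in both WT DP libraries and 4 were in H3K27me3. With lists of equal length the 2306 lost regions had a summit in 13.4%, a start in 8.11% and thymocyte-open chromatin in 13.3%, against 2.56%, 1.53% and 2.05% with the full lists. Of the 391, the day 4 Empty RV libraries held 81.1% and 90.03% and the day 4 Tcf-1 RV libraries 26.1% and 60.4%. The arms did not overlap and differed by -42.3 percentage points on average. With day 2 lists of equal length the arms did not overlap either, but lay closer, at 97.2% and 98.7% against 75.3% and 92.2%. Regions of 1 library per arm, by comparison, were at 74.4%, 87.4%, 43.3% and 81.1%. Without Empty RV replicate 1, the shortest list, 2757 regions were lost instead of 391.

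Adgrl3, a latrophilin adhesion receptor, had the most lost regions, 3 of 20, beside 4 gained. Both day 4 Empty RV libraries held all 3 lost ones. Pappa, a metalloproteinase that frees insulin-like growth factors, Stk24, Fbxw7, a ubiquitin ligase subunit, Rgs3, Prim2 and Wdr78 had 2 each. Pappa also had 3 gained regions, and each of the others had 1. Of the Fbxw7 pair, Empty RV replicate 3 held 1 on day 4 and no day 4 library the other. On day 4, 1 Stk24 region was held by Empty RV replicate 4 only. Both day 4 Empty RV libraries held the remaining lost regions of these genes. Both day 4 Empty RV libraries also held each lost region at the genes of the lists. For Col1a2, a collagen I gene, at chr6:4530993-4531320, Twist2, a mesenchymal transcription factor, at chr1:91872537-91872779, Cdh1, the E-cadherin gene, at chr8:106588878-106589124, and Fyn and Nfil3, neither day 4 Tcf-1 RV library did. For Dkk3 and Wnt10b, both of the Wnt lists, Tcf-1 RV replicate 4 did, and for Tle4 and Trat1 both Tcf-1 RV libraries did. None of these lost regions held a summit.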

How the data were processed

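ATAC-seq peak lists of 4 NIH3T3 libraries with a day 2 tag were compared, beside 4 with a day 4 tag and 4 of DP thymocytes (2 WT, 2 Tcf-1 KO). Per the submitters' processing notes, the tools included MACS2, Picard, the aligners STAR 2.5 and Bowtie2 2.2.9, Trim Galore and FastQC, with builds that include GRCm38 (mm10). Not given in the sources used here is which of them made which file. Each ATAC-seq file the authors deposited holds peak positions per library, with no height, score or depth. The Tcf-1 file the authors deposited is a pooled list of summits, 1 base wide, each with a score (0.0579 to 259.0) on a scale that is not stated. The deposited histone files hold islands per library, with read counts of ChIP and control, their ratio (fold) and a p-value per island.

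Peaks on unplaced sequence, 77 in the day 2 lists, were left out. Regions merged peaks of the 4 lists that shared at least 1 bp. A region held a summit if one lay inside it, lay in a mark if both replicates had an island at its midpoint, and was open in thymocytes if both WT libraries had an overlapping peak. It belonged to the nearest protein-coding gene within 50 kb, from RefSeq on GRCm38.p6, at distance 0 inside the gene. Shares carry 95% Wilson intervals. Libraries were compared by exact two-sided permutation tests, adjusted by Benjamini-Hochberg over 7 measures. Genes were named by rank: Tcf7, the genes with the most gained or lost regions of all genes, per list or in a mark, the regions with the highest scores or largest widths, promoters and gene starts in gained regions, and runs. The region rule, the 22 gene lists and these ranks were chosen with earlier results of these data known, and support nothing on their own. Alternatives covered list length, overlap, each library left out, replicate pairs, sex chromosomes, and the cut-offs for summits, starts, islands, thymocyte peaks and genes. RNA-seq, single-cell ATAC-seq and the other ChIP-seq libraries were not analysed here, and some genes that the ranks name are not reported here. Scripts used Python 3.11.15, numpy 2.4.6, pandas 2.3.3, scipy 1.17.1, statsmodels 0.14.6 and matplotlib 3.10.9, and recovered all planted regions when tested on simulated data.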

Additional observations from a re-analysis of the deposited data

Results flagged for a closer look

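The share of peaks in H3K9me3 islands moved in opposite directions under the day tags. On day 2 it was higher in Tcf-1 RV than in Empty RV by 0.160 percentage points, and both numbered pairs went that way (0.238 and 0.0822). On day 4 it was lower, at -0.237 percentage points, in both pairs (-0.262 and -0.212). The difference between the tags was not tested, and all values lie between 5.14% and 5.83% of a list.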

How the results depend on the processing

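Under 20 alternatives for 12 results, 80 of the recomputed values moved by more than counting error (counts by over 1.5 times) and 48 did not. Among the 48 are those of the difference between arms in the share of peaks with a summit, which were judged by direction alone. A reversal could be called only for that difference, and none was. The read depth of the lists is unknown, so no alternative could adjust for it.

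Lists trimmed to equal length by peak width gave 2853 gained and 2306 lost regions. The gained ones had a summit in 76.3%, a start in 6.73%, H3K27me3 in 2.49%, H3K9me3 in 7.33% and thymocyte-open chromatin in 6.94%. Both day 4 Tcf-1 RV libraries held 64.2% and a day 4 Empty RV library 63.1%, 6.81% of closed summits were gained, and 1913 genes had a gained region.

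Where a peak had to cover 50% of a region, the shares were 55.4% for summits, 7.15% for starts, 7.45% for thymocyte-open chromatin, 44.6% and 57.4% for day 4 Tcf-1 RV and Empty RV, and 17.8% for closed summits. Where absence meant no peak within 1 kb, starts were at 3.62%, H3K27me3 at 4.46%, thymocyte-open at 5.58%, day 4 Empty RV at 51.3% and closed summits at 15.4%.

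Leaving out 1 library at a time gave 10135 to 17811 gained and 644 to 2757 lost regions, 5382 to 8192 genes, and shares of 43% to 53.6% for summits, 6.11% to 13.2% for starts, 3.02% to 4.53% for H3K27me3, 5.78% to 6.75% for H3K9me3, 6.15% to 14.6% for thymocyte-open, 28.2% to 55.9% for day 4 Tcf-1 RV, 45.4% to 72.6% for day 4 Empty RV and 17.6% to 23.6% for closed summits. The highest gained count came without Empty RV replicate 2 and the highest lost count without Empty RV replicate 1.

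Libraries of the same number correlated at 0.0812 after removal of the arm means, too little to treat them as pairs, and the labels give no shared source. A replicate block, in which a region had to differ in at least 1 pair and in no pair the other way, gave 28227 gained and 3681 lost regions and 10386 genes, with 37.5% for summits, 11% for starts, 6.08% for H3K9me3, 11.7% for thymocyte-open, 41.9% and 62.5% for day 4 Tcf-1 RV and Empty RV, and 27.5% for closed summits.

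The upper 50% of summits by score gave 40% of gained regions and 26.7% of closed summits, and summits within 100 bp of the midpoint 48%. Starts within 500 bp gave 4.27% and within 5 kb 12.3%. Islands of either replicate gave 7.82% (H3K27me3) and 11.4% (H3K9me3), and islands with a fold of at least 2 gave 2.16% and 2.80%. A peak in either WT DP library gave 9.60%, and regions inside a gene 3448 genes.

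Added after seeing the data: either gene end gave 8.36%. Leaving out regions of any day 4 Empty RV library left 4552 gained regions at 2741 genes, with 65.8% for summits, 2.22% for starts, 5.01% for H3K27me3, 7.40% for H3K9me3, 1.91% for thymocyte-open and 11.5% for closed summits. The difference between arms in the share of peaks with a summit was 6.73 to 15.3 percentage points over its alternatives, all in the same direction.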
